A study of Mus musculus with 3 samples.

Results

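The genes described here encode 6 ETS transcription factors (Spi1, Spib, Ets1, Fli1, Elf1 and Etv6), 2 octamer-binding factors of the POU class (Pou2f1 and Pou2f2) and Pou2af1, the B cell coactivator known as OBF1 or OCA-B. They were taken by gene symbol. All 9 were found among the 37646 genes in the count tables, and all 9 passed the filter on low counts that left 11273 genes. RNA had been measured in 3 libraries of B220+GFP+ lymphoma cells sorted from spleens of moribund pBIC2 mice (strain C57BL/6). The genotype is given as p53F/F, Blimp1F/F, IKK2ca stopF/stopF, Cg1Cre/+ and Eu-hBCL2tg/+. These are floxed alleles of the genes for p53 and Blimp1, an active IKK2 behind a floxed stop, Cre at the Cγ1 locus, which is transcribed in B cells switching to IgG1, and a human BCL2 transgene under the Eµ enhancer. The 3 libraries form 1 group and are named tumours 1, 2 and 3. No age is given here, and the germinal centre B cells that served as controls were not analysed here, so every value below is a level in lymphoma cells and nothing was tested against normal B cells.

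ETS proteins share a winged helix-turn-helix domain that binds a GGA core. PU.1 (Spi1) and Spi-B (Spib) are close relatives that bind alike sites, often with IRF4 or IRF8, and act together in B cell development and antigen receptor signalling. OCT1 (Pou2f1) and OCT2 (Pou2f2) bind the octamer, an element of immunoglobulin promoters and enhancers, and OBF1 joins them there and is needed for germinal centres. In diffuse large B cell lymphoma, OCT2 and OBF1 are known dependencies, and Spi-B is known for high levels in the activated B cell type.

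Promoter sequences are shown first, for 3 members and a relative of Pou2af1 whose windows held letters of an octamer or ETS motif. RefSeq (GRCm38.p6) gave windows from 250 bases before to 50 bases after a start site for 6 of the 9 members (Spib, Elf1, Etv6, Pou2f1, Pou2f2 and Pou2af1), 9 windows in all. Each motif was searched on both strands. The octamer, ATGCAAAT, was in 1.74% of all 32851 windows and its inner bases TGCAAAT, which every octamer also holds, were in 4.02%. Of the 9 windows of members, 3 held TGCAAAT: that of Spib, that of Pou2af1 and the downstream start of Elf1. In Elf1 it was part of a whole octamer, in reverse orientation 104 bases upstream, the only one in a window of a member. The Elf1 sequence is not shown. The gene listed as 1810046K07Rik, an older symbol of Pou2af2, which encodes a relative of OBF1, held 2 whole octamers, 86 and 55 bases upstream of its start. A window with 2 or more octamers made up 0.107% of all windows. The 250 bases before the start follow, 5′ to 3′ on the strand of the gene, with these motifs in capitals.
Spib, chr7:44532072-44532321, minus strand: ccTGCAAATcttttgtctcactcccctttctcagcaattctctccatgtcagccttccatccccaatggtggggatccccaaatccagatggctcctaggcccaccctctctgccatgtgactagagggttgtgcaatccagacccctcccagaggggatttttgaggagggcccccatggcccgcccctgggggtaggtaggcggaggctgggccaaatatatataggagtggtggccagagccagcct
Pou2af1, chr9:51213440-51213689, plus strand: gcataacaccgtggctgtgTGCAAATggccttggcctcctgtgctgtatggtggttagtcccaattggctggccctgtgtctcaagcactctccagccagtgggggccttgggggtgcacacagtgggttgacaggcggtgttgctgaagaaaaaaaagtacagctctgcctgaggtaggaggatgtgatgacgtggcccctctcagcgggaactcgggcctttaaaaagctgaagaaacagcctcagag
1810046K07Rik, chr9:51328919-51329168, minus strand: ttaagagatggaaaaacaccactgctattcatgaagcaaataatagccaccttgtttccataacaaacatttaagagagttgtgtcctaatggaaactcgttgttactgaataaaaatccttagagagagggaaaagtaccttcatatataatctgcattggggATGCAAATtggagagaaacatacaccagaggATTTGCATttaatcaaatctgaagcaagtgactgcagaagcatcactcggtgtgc
The window of Pou2f2 held no octamer, and its start site lay inside the annotated gene (25087344 to 25179726). It is shown because it was the only window of a member with one of the ETS motifs searched: CCGGAAGT, an ETS site (3.89% of all windows), and the ETS-IRF composite site, GGAA and GAAA with 2 bases between them (2.72%). GAGGAAGT, a PU.1 site (3.20%), was in no window of a member. In the next stretch the capitals mark the composite site and then the ETS site, each in reverse orientation.
Pou2f2, chr7:25132461-25132710, minus strand: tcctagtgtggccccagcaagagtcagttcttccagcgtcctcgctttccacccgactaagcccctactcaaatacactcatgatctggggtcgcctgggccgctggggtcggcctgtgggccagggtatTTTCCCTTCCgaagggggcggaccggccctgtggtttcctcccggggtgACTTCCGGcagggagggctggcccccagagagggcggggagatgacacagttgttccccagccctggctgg
A match of letters is a description and no evidence of binding, and no binding data were used here.

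All 9 genes reached 10 CPM in each of the 3 tumours, as did 20.5% of all genes in the tables and 68.5% of those that passed the filter. CPM are counts scaled to library size with a TMM factor. The lowest value of any member was 50.1 CPM, for Etv6 in tumour 2, where 817 counts gave an exact 95% Poisson interval of 46.7 to 53.6 CPM. Counting error was therefore small beside most differences named below, although such intervals cover counting error only. Each library is called a tumour here, so no tumour has a replicate library of its own. The labels do not say that the libraries came from separate mice, so the SD (n = 3) may be technical in part.

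**Figure D1:**
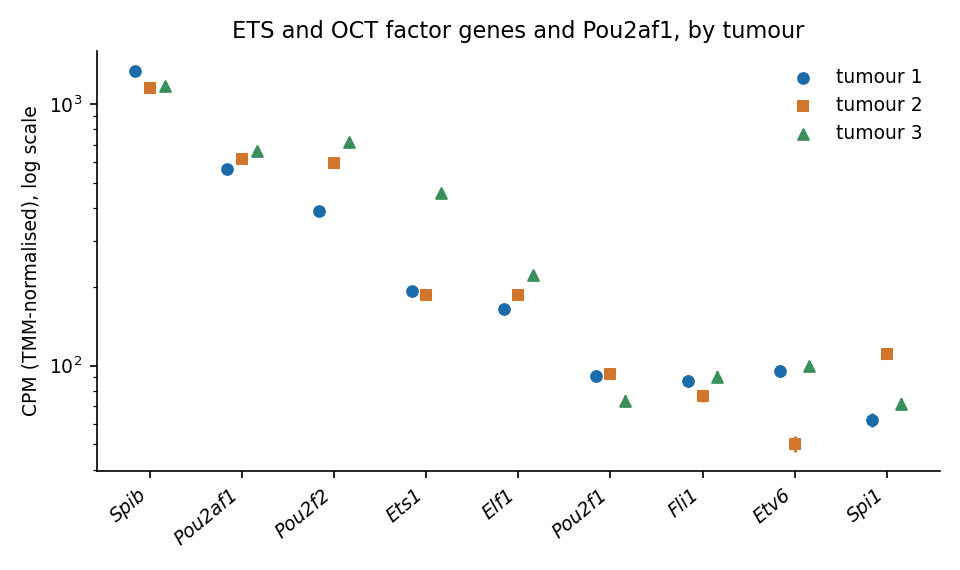
CPM of the 9 genes (log axis) in tumours 1, 2 and 3; vertical lines, mostly hidden by the symbols, are exact 95% Poisson intervals. Spib lies highest, between 1158 and 1334 CPM, and Ets1 in tumour 3 stands apart from tumours 1 and 2.

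Spib was the most abundant ETS gene. It was at 1334, 1158 and 1169.98 CPM in tumours 1, 2 and 3, a mean of 1221 ± 98.4 CPM. The 3 tumours lay close together, with the highest 1.15-fold above the lowest. Spi1, which encodes PU.1, was at 61.9, 111 and 71.4 CPM (81.4 ± 25.99 CPM). Tumour 2 was the highest and tumours 1 and 3 were near each other. In mm10 Spib lies on chromosome 7, 44525993 to 44532071, and Spi1 on chromosome 2, 91082390 to 91115756.

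Per kilobase of exon (RPKM, CPM divided by the merged exon length), Spib exceeded Spi1 20.3-fold in tumour 1, 9.81-fold in tumour 2 and 15.4-fold in tumour 3 (mean log2 ratio 3.86 ± 0.53). PU.1 is also a factor of macrophages. Of 10 macrophage and monocyte genes, 9 were highest in tumour 2, where Spi1 was highest too, and Adgre1 (3, 31 and 48 counts) in tumour 3. Their summed level was 36.0, 406 and 180 CPM in tumours 1, 2 and 3, most of it Cd68 (24.8, 325 and 162 CPM), while Cd14 had 0, 3 and 0 counts and Csf1r, the receptor that defines the lineage, was at 0.994, 15.6 and 2.59 CPM. The share of all genes highest in tumour 2 was not computed, and the part of such cells in the Spi1 level was not tested. In bulk RNA, more cells of a type and more RNA per cell cannot be told apart.

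Ets1, a factor that restrains plasma cell differentiation in B cells and is high in T cells, varied most of the 9 genes. It was at 193, 186 and 458 CPM in tumours 1, 2 and 3 (279 ± 155 CPM). Tumour 3 was 2.47-fold above tumour 2, and tumours 1 and 2 were alike. T cell genes were also highest in tumour 3, 8 of 10 of them. Their summed level was 302, 97.6 and 1063 CPM in tumours 1, 2 and 3. In tumour 1 most of this sum was Tcf7 (146 CPM), Cd5 (82.0 CPM) and Lck (68.7 CPM). Cd5 was lowest in tumour 3 (82.0, 33.9 and 16.0 CPM), and Cd4 was highest in tumour 2 (9, 95 and 16 counts). The defining marker Cd3e had 0 counts in tumour 1 and 23 in tumour 2, and was at 57.7 CPM in tumour 3. Cd8a was at 238 CPM there. The share of all genes highest in tumour 3 was not computed, and the part of T cell RNA in the Ets1 level of tumour 3 was not tested.

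Fli1 is the neighbour of Ets1 on chromosome 9, at 32422204 to 32542861 against 32636221 to 32757820, with 93.4 kb between them. It encodes a factor of haematopoietic and endothelial cells. It was at 87.5, 76.6 and 90.4 CPM (84.8 ± 7.29 CPM), so it was not raised in tumour 3 as its neighbour was. Per kilobase, Ets1 to Fli1 was 0.907 in tumour 1, 0.996 in tumour 2 and 2.08 in tumour 3. The mean log2 ratio of 0.30 was smaller than its SD of 0.66, and without tumour 3 it was -0.07.

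Elf1, an ETS activator of lymphoid cells, was at 164, 186 and 221 CPM (190.4 ± 28.9 CPM). The 3 tumours were within 1.35-fold. It lies on chromosome 14, 79481194 to 79582494, and shares 4.85% of its exon bases with Wbp4 on the other strand, which was at 38.8, 43.3 and 44.2 CPM. The counts do not separate start sites, so they say nothing of the start with the octamer. Etv6, a repressor known for fusions in leukaemia, was at 95.3, 50.1 and 99.6 CPM (81.7 ± 27.4 CPM). Tumour 2 was low and the other 2 tumours were alike, with a range of 1.99-fold. It lies on chromosome 6, 134035700 to 134270158.

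The octamer factors differed from each other in level. Pou2f2, which encodes OCT2, the form enriched in B cells, was at 391, 597 and 715 CPM (568 ± 164 CPM). Tumour 1 was the lowest and tumour 3 the highest, 1.83-fold above it. Pou2f1, which encodes the ubiquitous OCT1, was at 91.0, 93.2 and 73.0 CPM (85.7 ± 11.1 CPM), lowest in tumour 3. Per kilobase, Pou2f2 exceeded Pou2f1 8.65-fold, 12.9-fold and 19.7-fold in tumours 1, 2 and 3 (mean log2 ratio 3.70 ± 0.59). As plain CPM, without regard to length, the ratio was 4.30, 6.41 and 9.79.

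The Pou2f1 level is uncertain. The gene (chromosome 1, 165865154 to 166002678) shares 18.1% of its exon bases with Cd247, a T cell receptor subunit gene on the other strand, and the strand setting of the counting is not given in the sources used here. Cd247 had 3, 17 and 701 counts, so it was high in tumour 3, where Pou2f1 was lowest. Whether reads of the shared bases were lost or exchanged was not tested. Its merged exon length of 16597 bases, from 18 transcripts, is also the longest of the 9 and lowers its RPKM. Pou2f2 (chromosome 7, 25087344 to 25179726) shares 0.425% with Mir6537, which had no count.

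Pou2af1, the coactivator gene, was at 567, 618 and 663 CPM (616 ± 48.1 CPM). It was steady, with a range of 1.17-fold. Per kilobase it exceeded the sum of Pou2f1 and Pou2f2 4.202-fold, 3.10-fold and 2.85-fold (mean log2 ratio 1.74 ± 0.29). It was thus above the summed OCT genes in every tumour on this scale, while by plain CPM it was 1.18, 0.894 and 0.841 times their sum. It lies on chromosome 9, 51213708 to 51240080, and shared no exon base with another gene of the annotation.

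By mean RPKM the order was Spib (426 ± 34.3), Pou2af1 (242 ± 18.9), Pou2f2 (68.9 ± 19.9), Ets1 (32.9 ± 18.3), Spi1 (30.2 ± 9.64), Elf1 (28.3 ± 4.29), Fli1 (24.3 ± 2.09), Etv6 (13.6 ± 4.58) and Pou2f1 (5.17 ± 0.67). Spib, Pou2af1 and Pou2f2 stood in that order at the top in each of the 3 tumours, and Etv6 and Pou2f1 stood at the bottom. Of the 4 genes between these, Ets1, Spi1 and Fli1 changed places between tumours, and Elf1 held place 5 in each. Neighbours among these 4 differed by less than the spread: the mean log2 ratio was 0.04 ± 0.97 for Ets1 to Spi1, 0.06 ± 0.46 for Spi1 to Elf1 and 0.21 ± 0.22 for Elf1 to Fli1. The other 5 neighbouring pairs kept their order in 3 of 3 tumours, from a mean log2 ratio of 0.82 ± 0.22 for Spib to Pou2af1 to 1.85 ± 0.34 for Pou2af1 to Pou2f2. An exact sign-flip permutation test over 3 libraries cannot give a two-sided p below 0.25, so none was run.

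**Figure D2:**
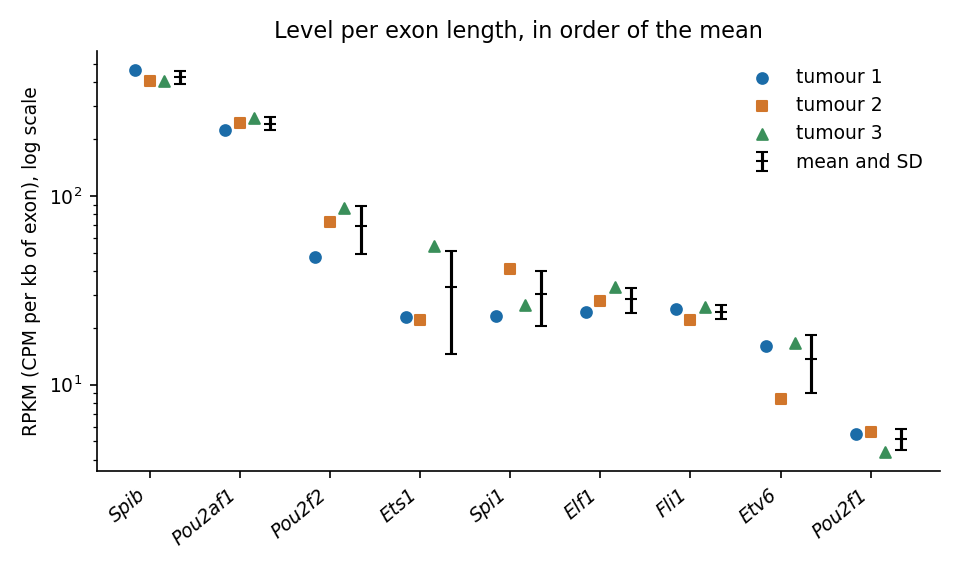
RPKM (log axis) of the 9 genes in order of their mean; coloured symbols are tumours and black bars the mean and SD (n = 3). Spib, Pou2af1 and Pou2f2 lie above the rest, and the ranges of Ets1, Spi1, Elf1 and Fli1 overlap.

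Spib also led the whole ETS family. Of 21 other ETS genes, 20 were in the tables. Of these, 7 reached 10 CPM in each tumour, beside 20.5% of all genes in the tables, and 7 stayed under 1 CPM in each tumour. For the level of 1 CPM, the share of all genes in the tables was not computed. Over all 26 ETS genes measured, Spib made up 63.2%, 63.0% and 57.3% of the summed RPKM in tumours 1, 2 and 3, and the 6 members together 78.2%, 81.9% and 79.2%. No other ETS gene had a mean share above 5.57%, that of Elf4. Such shares compare transcripts and not protein.

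Of the other ETS genes, Elf4, a regulator of lymphocyte quiescence, was at 165, 189 and 361 CPM, highest in tumour 3 as Ets1 was. Elk4 (127, 149 and 110 CPM), Etv3 (121, 128 and 103 CPM) and Gabpa (97.4, 89.1 and 105 CPM), a factor of housekeeping promoters, varied little, and Elf2 was at 68.4, 43.2 and 75.1 CPM. Ets2 stood apart in tumour 1, at 334 CPM against 44.1 and 39.5 CPM. Elk3, a repressor that acts with serum response factor, was low in the same tumour, at 4.31 CPM against 41.0 and 70.3 CPM. The epithelial gene Elf3 had 0, 121 and 7 counts.

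**Figure D3:**
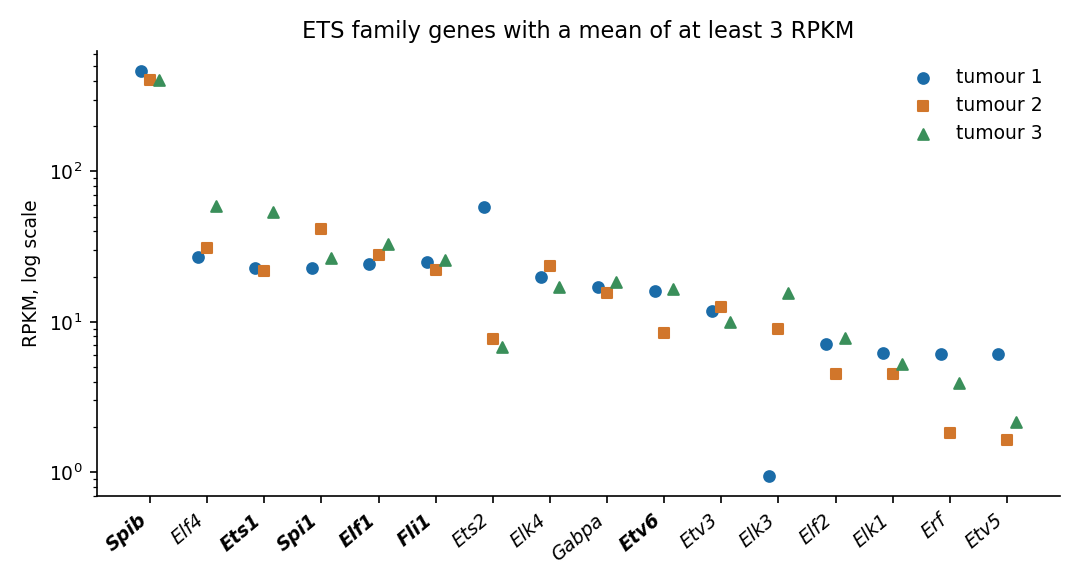
RPKM (log axis) of the 16 ETS genes with a mean of at least 3 RPKM, in order of the mean, by tumour; the 6 members are in bold. Spib lies above all others, and Ets2 and Elk3 show tumour 1 apart from the rest.

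Most other POU genes were near silent. Of 15 listed POU and OBF1-related genes, 11 stayed under 1 CPM in each tumour. The share of all genes in the tables under 1 CPM was not computed, so this count is not shown to be particular to them. A level of 10 CPM in each tumour was reached by 2, beside 20.5% of all genes in the tables. Pou2f2 made up 86.9%, 88.3% and 88.8% of the summed RPKM of 15 POU genes. Pou6f1 was at 11.3, 16.4 and 38.7 CPM, and Pou4f1, a factor of sensory neurons, had 1, 85 and 21 counts. Pou2f3, the tuft cell member of the OCT class, had 0, 6 and 13 counts.

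The other POU-related gene above 10 CPM was 1810046K07Rik (Pou2af2), whose product is known as the partner of Pou2f3 in tuft cells. It was at 249, 158 and 119 CPM (175 ± 66.5 CPM), highest in tumour 1. Per kilobase this was 122 ± 46.3 RPKM, a mean between those of Pou2af1 and Pou2f2, although in tumour 3 it was at 83.0 RPKM and Pou2f2 at 86.7 RPKM. Pou2af1 exceeded it 1.28-fold, 2.21-fold and 3.13-fold in tumours 1, 2 and 3. The gene lies on chromosome 9, 51289686 to 51328917, on the other strand 49.6 kb beyond Pou2af1. The remaining relative, Colca2 (Pou2af3), lies between them and had 42, 24 and 36 counts. The newer names are background and are not paired with these symbols in the reference tables.

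Spread between tumours was low for several members. The highest tumour was at least 2-fold above the lowest for 1 of the 9 genes (Ets1), against 34.9% of the 11273 genes tested and 24.7% of the 4643 genes with a mean of at least 50 CPM, a level that all 9 exceeded. Between pairs of tumours, 0 of 9 differed by 2-fold between tumours 1 and 2 (19.5% of genes tested), 1 of 9 between tumours 1 and 3 (22.1%) and 1 of 9 between tumours 2 and 3 (17.0%), in each case Ets1. The pairs share libraries. Without tumour 3 the count was 0, and with total counts in place of TMM it was 2, since Etv6 reached 2.09-fold. The filter needs counts in every library and so removes genes that are silent in a tumour. Without it 67.2% of genes with a count passed 2-fold.

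The median SD of log2 CPM over the 9 genes was 0.22, against 0.39 over all genes tested. The genes with a mean of at least 50 CPM had a median of 0.35. Pou2af1, Spib and Fli1 had the smallest SD (0.11, 0.11 and 0.13), and 6.77%, 6.87% and 8.41% of genes tested had a smaller one. Pou2f1 (0.19) and Elf1 (0.22) followed. Spi1 (0.44), Pou2f2 (0.45), Etv6 (0.55) and Ets1 (0.74) were above the median of all genes. No test was made of these spreads.

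**Figure D4:**
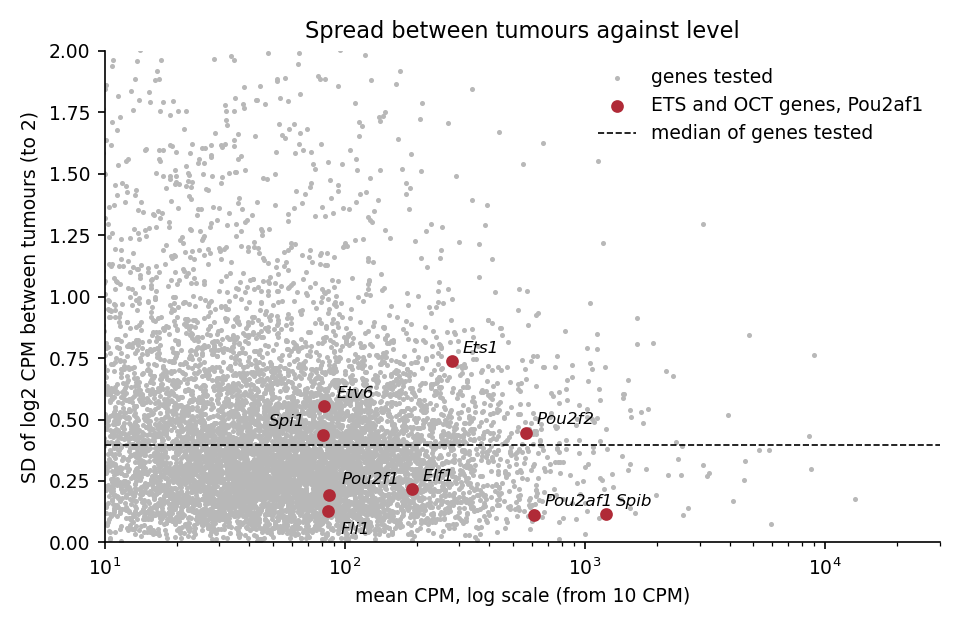
SD of log2 CPM between the 3 tumours against mean CPM (log axis) for the genes tested (grey) and the 9 genes (red); the axes start at 10 CPM and end at an SD of 2, which leaves 2869 of 11273 genes outside. Spib, Pou2af1 and Fli1 lie near the bottom and Ets1 lies above the dashed median.

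The deviation of each member from its mean was set beside the median deviation of the genes on the same chromosome. Ets1 was 0.85 (log2) above its mean in tumour 3, where the median of 605 genes of chromosome 9 was 0.03. Pou2f2 was -0.49 in tumour 1 at a chromosome 7 median of 0.13, and Etv6 was -0.64 in tumour 2 at a chromosome 6 median of -0.23. Pou2f1 was -0.22 in tumour 3 at a chromosome 1 median of 0.11, and Pou2af1 was -0.12 in tumour 1 at a chromosome 9 median of 0.15. Of these 5, Pou2f2, Pou2f1 and Pou2af1 deviated in the opposite direction to their chromosome there. Fli1 (-0.14 in tumour 2, chromosome 9 median -0.18) and Elf1 (0.23 in tumour 3, chromosome 14 median 0.11) deviated in the same direction as theirs. Spi1 in tumour 1 (-0.35) was close to the chromosome 2 median there (-0.34), while its level in tumour 2 (0.49) was above it (0.12). Spib in tumour 1 (0.13) equalled the chromosome 7 median to 2 decimals. Gene copy number was not measured.

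**Figure D5:**
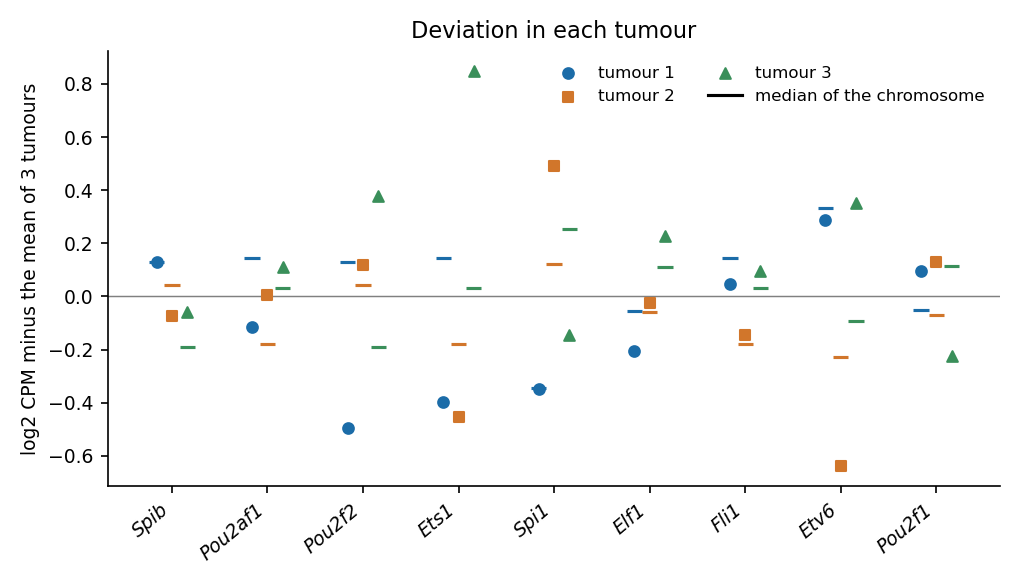
Log2 CPM minus the mean of the 3 tumours for each gene (symbols) and the median of the same quantity over the genes of its chromosome (short lines), by tumour. The symbol of Ets1 in tumour 3 lies far from its chromosome median, and that of Spib in tumour 1 lies on it.

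The genes with profiles most like those of Ets1 and Etv6, the members of largest SD, were found by Euclidean distance between centred log2 CPM over 3 tumours among 8339 genes. For Ets1 they were Trim59 (distance 0.02; 31.0, 29.9 and 75.4 CPM), Foxo1, a B cell identity factor (0.04; 45.2, 42.7 and 104 CPM), and Sptbn1 (0.04; 170, 168 and 419 CPM). For Etv6 they were Esyt2 (0.003; 72.4, 38.1 and 75.9 CPM), Lynx1 (0.02; 157, 83.6 and 164 CPM) and Lpar2 (0.02; 20.8, 10.7 and 21.7 CPM). With 3 values per gene, likeness here is a description only.

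Partners of the ETS factors were mostly expressed. Of 10 partner genes, 9 reached 10 CPM in each tumour, as did 68.5% of genes tested. Pax5, which recruits Ets1 to the Cd79a promoter, was at 1252, 1336 and 960.1 CPM. Of the IRF partners of PU.1 and Spi-B, Irf4 was at 392, 297 and 233 CPM, and Irf8 was at 465, 79.0 and 221 CPM, lowest in tumour 2. Gabpb2 (199, 138 and 201 CPM), a partner of Gabpa, and Cbfb (159, 133 and 214 CPM), the partner of RUNX proteins, varied less. Jun, an AP-1 partner of Ets1, was at 135, 1158 and 712 CPM. Runx2 was the one partner below the limit, at 6.50, 0.674 and 24.0 CPM.

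Of 12 genes known as targets of PU.1 and Spi-B, 11 reached 10 CPM in each tumour, as did 68.5% of genes tested. The antigen receptor chains Cd79a (908, 1612 and 849 CPM) and Cd79b (519, 1339 and 1521 CPM), the kinase Syk (570.2, 1252 and 1253 CPM) and Ptprc, which encodes B220 (408, 718 and 1346 CPM), led the list. The NF-κB subunits Rel (407, 343 and 303 CPM) and Nfkb1 (341, 220.3 and 379 CPM) followed. The adaptor Grap2 was at 22.8, 156 and 101 CPM, and Il7r, a receptor of progenitor B cells and T cells, had 9, 26 and 53 counts. The highest tumour was at least 2-fold above the lowest for 6 of the 11 targets tested, beside 34.9% of all genes tested.

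Genes known as targets of OCT2 and OBF1 were divided. Of 10, 5 reached 10 CPM in each tumour, beside 20.5% of all genes in the tables and 68.5% of genes tested. These were Ms4a1 (CD20; 916, 2590.3 and 2232 CPM), Spib, Il5ra (141, 202 and 166 CPM), Btk (129, 98.1 and 116 CPM) and the potassium channel Kcnn4 (107, 94.5 and 140.3 CPM). Cd36, a scavenger receptor known to depend on OCT2 in B cells, ranged from 35 counts (2.32 CPM) in tumour 1 to 1139 CPM in tumour 2 and 98.7 CPM in tumour 3. Crisp3 had no count in any tumour. Of the 6 targets tested, Spib among them, 2 (33.3%) passed 2-fold, near the 34.9% of all genes tested. Targets with few counts in a tumour did not pass the filter and are not in this count. Macrophages also express Cd36, their genes were highest in tumour 2, and their part in its level was not tested.

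Other factors of B cell identity give a scale for these levels. All 8 of a list of such factors reached 10 CPM in each tumour, as did 68.5% of genes tested. The list was led by Pax5, Ikzf1 (776, 921 and 958 CPM), Tcf3 (655, 711 and 281 CPM), Ikzf3 (165, 468 and 638 CPM), Tcf4 (541, 359 and 324 CPM) and Ebf1 (99.3, 209 and 217 CPM). By mean RPKM, Spib and Pou2af1 (426 and 242) were above Ikzf1, the highest of these 8 at 153. This order depends on exon length. By plain mean CPM, Spib (1221) was close to Pax5 (1183), and Pou2af1 (616) was below Pax5 and Ikzf1 (885). Of the 8, 4 passed 2-fold between tumours, beside 34.9% of all genes tested. Their median SD of log2 CPM was 0.51, beside 0.22 for the ETS and OCT genes and 0.39 for all genes tested. The difference was not tested.

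Facts that touch all of these values are few. The totals were 15576975 to 17014022 counts, and TMM factors were 0.969 to 1.04. The sorted cells carried B cell markers, with 7 of 7 reaching 10 CPM in each tumour, as did 68.5% of genes tested. Among them were Cd74 (mean 8996 CPM) and Ms4a1 (1913 CPM). Plasma cell genes were few: Xbp1 (92.1 CPM) and Mzb1 (114 CPM) led, and Sdc1 had 3, 7 and 9 counts. T cell genes were led by Tcf7 (119 CPM) and Lck (97.4 CPM) and macrophage genes by Cd68 (170.4 CPM) and Lyz2 (16.8 CPM). The next sums are for the tumour where each was highest, with mean levels of the leading genes in brackets. Neutrophil genes (Ngp 7.34, S100a9 5.54 CPM) reached 42.9 CPM and erythroid genes (Hbb-bs 6.36, Hba-a1 2.96 CPM) 20.1 CPM. Natural killer genes (Prf1 13.9, Gzma 2.52 CPM) reached 48.3 CPM in tumour 3. Most of this was Prf1, at 39.96 CPM there, while Ncr1 had no count in any tumour and Klrb1c had 26, 1 and 0 counts. Plasmacytoid dendritic cell genes (Bst2 43.1, Pacsin1 6.01 CPM) reached 65.3 CPM in tumour 1. Most of this was Bst2, at 57.5 CPM there, while Siglech had 1, 5 and 0 counts. Which cells these levels came from was not tested.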

How the data were processed

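RNA was measured in 3 polyA libraries of sorted B220+GFP+ lymphoma cells, sequenced as single-end reads. The authors deposited a raw count for each gene. The submitters' processing notes name FastQC, STAR 2.5.2b, featureCounts 1.6.0 and the build mm10. Neither annotation release nor strand setting is stated in the labels. It is therefore not known whether reads of genes that overlap on opposite strands were told apart. No row lacked a gene name. Coordinates and exon lengths came from GENCODE M21 (mm10), to which 37536 of 37646 identifiers matched without their version.

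The labels give 1 group, so no contrast was fitted and no p-value is given. The tumour numbers follow accession order and are names only. Counts were normalised with TMM in edgeR 4.0.16 (R 4.3.3) after filterByExpr (minimum count 10), and log2 CPM used a prior count of 2. Depth was 15576975 to 17014022 counts. DESeq2 1.42.0 gave size factors as an alternative. Scripts ran in Python 3.11.15 (SciPy 1.17.1 for intervals, pandas 2.3.3 for tables, NumPy 2.4.6) and figures were drawn with matplotlib 3.10.9.

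The members and lists were chosen with earlier results of these data known. Of each list, the genes at 10 CPM or more in every tumour were named (the 6 of highest mean CPM where there were more), with the 2 of largest SD at a mean of at least 1 CPM, and the 2 highest of each marker list. A gene of the OCT2 and OBF1 target list that this rule names is not reported here. For the 2 members of largest SD, the 3 genes of nearest profile were named. Pou2f3, Colca2, Cd8a, Cd14, Csf1r, Cd3e, Cd247, Crisp3, Sdc1, Wbp4 and Mir6537 were added after their values were seen, and the motif letters were chosen with the promoter table at hand. Alternatives covered normalisation, filters, thresholds, prior count, transcript length and leaving out each tumour.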

Additional observations from a re-analysis of the deposited data

How the results depend on the processing

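The levels of the 9 genes kept their place above 10 CPM in every tumour under each normalisation and without each tumour, and the log2 ratios of Spib to Spi1, Pou2f2 to Pou2f1 and Pou2af1 to the OCT genes stayed within 1 SD of the values reported under each alternative run for them. Other values moved, as follows. The count of members past 2-fold was 2 with total counts only and 4 at 1.5-fold (Ets1, Etv6, Pou2f2 and Spi1), and 0 to 1 with a tumour left out, 0 being without tumour 3. The share of all genes tested past the fold was 64.3% at 1.5-fold, 67.2% with no filter beyond a count in any library, and 17.0% to 22.1% with a tumour left out, where fewer libraries are compared. The median SD of the members was 0.14 to 0.18 with a tumour left out, lowest without tumour 3. The log2 ratio of Ets1 to Fli1 was 0.97 by longest transcript length, which shortens Ets1 more than Fli1, and -0.073 to 0.53 with a tumour left out, reversed without tumour 3. In the order by RPKM, 5 to 9 members kept their place with a tumour left out; without tumour 3, Ets1 fell behind Spi1, Elf1 and Fli1. By longest transcript length, Spi1 was at 40.01, Ets1 at 54.9, Elf1 at 44.96 and Pou2f1 at 6.57 RPKM. With total counts only, the largest deviation of Spib and of Pou2af1 fell in another tumour. Minus the chromosome median there, it was -0.12 for Spib and 0.076 for Pou2af1, both small. Within a tumour this difference hardly depends on the normalisation. A median over genes with a mean of at least 50 CPM was chosen after seeing the data. No paired analysis was possible because there is 1 group. Depth limits only genes of few counts, such as Elf3, Pou2f3 and Colca2.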
